A study of Mus musculus with 8 samples.

Results

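The WT and mosaic Brg1-sufficient Treg libraries, the sources of Brg1-expressing Treg cells from mice without inflammation in this series, were compared with each other. They are 2 of 8 libraries, 1 per condition, and the comparison covered the 12266 genes of 53465 identifiers that reached an FPKM of 1 in at least 1 of both libraries. FPKM values are fragments scaled by the exon length of the gene and by the library total. A further 17 identifiers that reached this level had no entry in the annotation. Differences were sorted into immediate-early and stress genes, the cell cycle, RNA of macrophages, erythroid and other cells, Treg genes, and genes that were lower in the WT library. The gene lists used for this were chosen with earlier results of these data known, so their counts are a description only.

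Brg1, encoded by Smarca4, is the ATPase of the BAF chromatin remodelling complex. Treg cells are CD4+ T cells that depend on the transcription factor Foxp3 and restrain other immune cells. The WT library came from mice labelled R26 CAG-FlpoER, Brg F/+ with Foxp3 YFP-Cre/+, where F is a floxed Brg1 allele. The mosaic library was labelled as R26 CAG-FlpoER and Brg F/ΔR with Foxp3 +/+ cells. The study describes these as the YFP− cells of healthy females that carry Foxp3 YFP-Cre on only 1 X chromosome, so that random X inactivation leaves Brg1-deleted YFP+ cells and Brg1-sufficient YFP− cells side by side. The ΔR allele is a gene trap that is null until Flp recombinase removes it. The methods name heterozygous littermates as WT, and with 1 allele floxed and deleted in YFP+ cells, or trapped, both kinds of cell keep 1 intact Brg1 allele. The Cre and YFP sit in the Foxp3 locus itself, so the WT cells that were sorted as YFP+ use the modified Foxp3 allele and the mosaic YFP− cells the unmodified one. The mice of both libraries were untreated, labelled C57BL/6 and 3 to 4 weeks old, and the cells came from spleen and lymph nodes. The ΔR allele was made on a mixed C57BL/6 and 129Sv background and backcrossed. Whether a library holds 1 animal or a pool was not stated in the sources used here, and allele, sort gate, animal and library cannot be told apart in this comparison. The methods give 1 sort gate for Treg cells, CD4+CD25+YFP+, and how the YFP− cells were gated was not given in the sources used here. The share of other CD4+ T cells in the mosaic library is therefore unknown.

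The WT library held 17347325 recovered reads and the mosaic Brg1-sufficient library 22989505, so that 1 read equals 0.0603 and 0.0472 CPM. Levels are given in CPM, read counts scaled to a common library total with TMM factors over the 6 total Treg libraries. These include the mosaic Brg1-deleted library from Brg F/ΔR mice with Foxp3 YFP-Cre, and 3 libraries from rKO1 mice, in which Treg cells lack Brg1 and inflammation develops. The rKO1 mice carried R26 CAG-FlpoER and, by their labels, Foxp3 YFP-Cre/YFP-Cre, with Brg F/deltaR, or Brg F/+ for the re-expressed cells. Their libraries were untreated, or sorted on Day 7 after tamoxifen (TAM) as GFP+ cells still lacking Brg1 and as GFP− cells that had re-expressed it. With 1 library a side there is no replicate check, and no p-value is given. Many folds stand with their exact 95% binomial interval, which covers counting error only.

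Smarca4 itself (chromosome 9, GRCm38 positions 21616169 to 21704230) had 88.0 CPM in the WT and 77.1 CPM in the mosaic Brg1-sufficient library, a 1.14-fold difference (interval 1.06 to 1.23). In the other 4 libraries it ranged from 36.1 to 58.1 CPM. Both libraries therefore lay above the rest in Smarca4, the Brg1-reexpressed library included. Of 27 listed BAF subunits, 22 were compared and 0 were 2-fold higher or lower in WT, beside 7.93% and 7.83% of all genes compared. The log2 difference of WT over mosaic for these subunits was negative for 18 and positive for 4, with a median of −0.33 beside −0.05 for all genes. Among the 22, Arid1a, the DNA-binding subunit of the canonical complex, had 129 CPM in the WT and 160 CPM in the mosaic library.

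At least a 2-fold higher level in WT was found for 973 genes, 7.93% of those compared, and at least a 2-fold lower level for 960 genes, 7.83%. These genes are called higher or lower in WT from here on. The median log2 difference of WT over mosaic across all genes was −0.05, with 5th and 95th percentiles of −1.29 and 1.35. Differences of 8-fold or more were found for 232 genes in the WT direction and for 154 genes in the other. Protein coding genes made up 77.4% of the genes compared, with 443 higher and 497 lower in WT. Of the genes higher in WT, 121 had no read in the mosaic library, and 106 of those lower in WT had no read in WT. The counts at a threshold depend on small differences: Kif23 and Rgs1 lay just inside at log2 1.0025 and 1.0034, while Dnajb1 lay just outside at 0.9946.

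**Figure D1:**
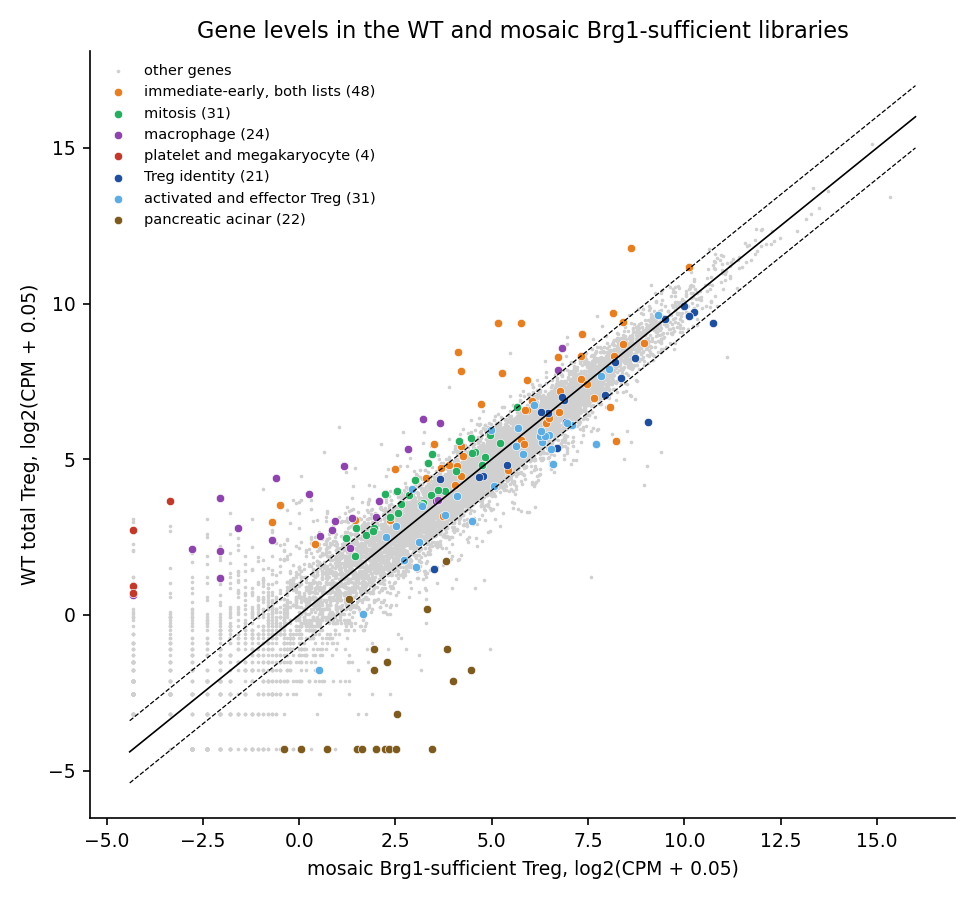
Each point is a gene, with its level in the mosaic Brg1-sufficient library on the x axis and in the WT library on the y axis, both as log2 of CPM plus 0.05, 1 library each. The solid line marks equal levels and the dashed lines a 2-fold difference, and colours mark the gene lists with the number of genes compared. Of 48 immediate-early genes 36 lie above the line, as do all 24 macrophage and all 4 platelet genes, and all 22 pancreatic acinar genes lie below it. The 4 platelet genes passed the FPKM filter through WT only, so their side was fixed in advance.

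The other 4 total Treg libraries place both values for each gene. For 538 of the 973 genes higher in WT (55.3%), the WT value lay above all other 4 libraries, and for 371 (38.1%), the mosaic value lay below all other 4. Among the 960 genes lower in WT, the WT value was below the other 4 for 420 (43.8%) and the mosaic value above them for 470 (49.0%). Over all genes compared, WT was above the other 4 libraries for 19.2% and below them for 15.6%. The mosaic value was below them for 15.1% and above them for 23.2%. Selecting genes by their difference favours such outlying values, so the shares among called genes are a description only. The mosaic Brg1-deleted library was nearer to its Brg1-sufficient partner than to WT for 61.6% of all genes compared. Across genes, which are not independent replicates, Pearson's r of log2 levels was 0.968 between the paired mosaic libraries and 0.946 between WT and mosaic Brg1-sufficient.

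Immediate-early genes are transcribed within minutes of a stimulus without new protein synthesis, through factors such as CREB and SRF that are already present. They encode AP-1 and other transcription factors, and feedback regulators that shut the signal off again. In T cells they respond to antigen receptor signals and also to stress during tissue handling. Of 24 transcription factors listed, 21 were compared, 10 were higher in WT and 1 was lower, with a median log2 difference of 0.70. Of 27 feedback and signalling genes, all were compared, 12 were higher and 1 lower, with a median of 0.93. Together 22 of 48 were called higher and 2 lower, beside 7.93% and 7.83% of all genes, and the summed level of both lists was 13867 CPM in WT and 5943 CPM in mosaic, a 2.33-fold difference. The remaining 3 of the 51 listed genes fell below the FPKM filter.

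The promoters of 6 of these genes are shown, taken from those that were higher in WT and hold the letters TGACG. Each is the RefSeq sequence of GRCm38.p6 from 250 bases before to 50 bases after the annotated start, 5′ to 3′ on the gene's strand, with TGACG on either strand in capitals, the core of the cAMP response element (CRE) that CREB binds. They lie at chr12:85473640-85473939 (Fos, plus strand), chr7:19309996-19310295 (Fosb, minus), chr8:84978699-84978998 (Junb, minus), chr15:101266596-101266895 (Nr4a1, plus), chr7:45526219-45526518 (Ppp1r15a, minus) and chr17:26508423-26508722 (Dusp1, minus).
Fos: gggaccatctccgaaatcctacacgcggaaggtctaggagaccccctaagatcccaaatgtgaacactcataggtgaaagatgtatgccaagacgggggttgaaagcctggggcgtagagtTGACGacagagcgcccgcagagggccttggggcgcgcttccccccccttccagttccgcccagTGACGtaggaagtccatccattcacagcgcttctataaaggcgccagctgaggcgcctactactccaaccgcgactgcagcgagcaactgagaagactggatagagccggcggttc
Fosb: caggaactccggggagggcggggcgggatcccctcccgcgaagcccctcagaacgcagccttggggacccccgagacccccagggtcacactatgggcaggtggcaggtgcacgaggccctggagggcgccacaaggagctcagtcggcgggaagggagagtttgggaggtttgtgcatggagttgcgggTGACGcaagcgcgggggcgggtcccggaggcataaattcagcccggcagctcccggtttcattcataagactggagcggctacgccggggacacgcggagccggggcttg
Junb: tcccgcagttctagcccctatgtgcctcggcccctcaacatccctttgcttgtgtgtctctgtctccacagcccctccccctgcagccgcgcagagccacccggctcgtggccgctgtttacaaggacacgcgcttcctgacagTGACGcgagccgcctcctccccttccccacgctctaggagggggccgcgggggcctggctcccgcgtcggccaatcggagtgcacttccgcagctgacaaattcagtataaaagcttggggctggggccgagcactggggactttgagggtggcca
Nr4a1: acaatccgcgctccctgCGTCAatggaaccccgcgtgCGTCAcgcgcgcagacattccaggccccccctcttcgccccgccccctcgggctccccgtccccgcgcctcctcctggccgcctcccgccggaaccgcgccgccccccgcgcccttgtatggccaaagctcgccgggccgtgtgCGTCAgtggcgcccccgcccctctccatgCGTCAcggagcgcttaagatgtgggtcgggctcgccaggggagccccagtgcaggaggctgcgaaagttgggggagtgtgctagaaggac
Ppp1r15a: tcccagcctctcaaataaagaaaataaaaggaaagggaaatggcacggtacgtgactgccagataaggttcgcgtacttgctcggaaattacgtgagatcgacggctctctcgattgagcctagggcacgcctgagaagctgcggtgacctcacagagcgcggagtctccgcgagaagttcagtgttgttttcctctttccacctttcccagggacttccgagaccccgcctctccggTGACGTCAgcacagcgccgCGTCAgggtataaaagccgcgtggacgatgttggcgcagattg
Dusp1: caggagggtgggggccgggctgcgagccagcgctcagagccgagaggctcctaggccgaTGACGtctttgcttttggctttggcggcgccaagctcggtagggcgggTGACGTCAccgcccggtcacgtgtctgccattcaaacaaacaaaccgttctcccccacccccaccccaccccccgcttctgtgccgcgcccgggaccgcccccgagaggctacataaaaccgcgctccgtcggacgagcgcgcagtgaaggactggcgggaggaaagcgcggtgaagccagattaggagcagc

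TGACG occurred 2 times in the Fos window, 1 time each in Fosb and Junb, 4 times in Nr4a1 and 3 times each in Ppp1r15a and Dusp1. The complete palindrome TGACGTCA, which contains this core, was present in Ppp1r15a and Dusp1. Promoters were found for 19 of the 22 immediate-early genes higher in WT, and 12 of the 19 held TGACG in at least 1 window. Those without it included Jun, Zfp36 and Rgs16. TGACG was also present for 10 of 20 other members with a promoter. Some genes have several windows. Counted by window, TGACG was in 15 of 23 and 13 of 34, and in 20.8% of all 32851 windows of this length. TGACGTCA was found for 2 of 19 and 3 of 20 genes, or 2 of 23 and 3 of 34 windows, and in 1.79% of all windows. The CArG box bound by SRF was found for 1 of the 19 (Zfp36) and 2 of the 20. By window this was 1 of 23 and 5 of 34, and 1.63% of all windows. A match describes the letters in the window only.

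Fos, a subunit of AP-1, had 348 CPM in WT and 17.4 CPM in mosaic, a 20.04-fold difference (18.0 to 22.3). The other 4 libraries spanned 19.8 CPM in mosaic Brg1-deleted to 152 CPM in treated Brg1-deleted rKO1 cells. WT was thus the highest of the 6 and mosaic Brg1-sufficient the lowest. Its paralogue Fosb had 11.5 and 0.661 CPM, 17.4-fold apart (10.1 to 32.5). The partners Jun and Junb followed, Jun with 228 CPM in WT and 18.4 CPM in mosaic (12.4-fold, 11.2 to 13.8). Junb had 3494 and 393 CPM, 8.88-fold apart (8.68 to 9.09), and 217 to 1753 CPM in the other 4 libraries. Klf4, a zinc finger factor that restrains T cell cycling, had 7.84 and 0.567 CPM, 13.8-fold apart (7.66 to 27.5). The nuclear receptor Nr4a1, a reporter of antigen receptor signals, had 187 CPM in WT and 60.1 CPM in mosaic, 3.11-fold apart (2.91 to 3.32). Ier2, a short-lived nuclear protein, had 830 CPM in WT and 284 CPM in mosaic, 2.92-fold apart (2.83 to 3.01), and WT was again the highest of the 6. Bhlhe40, a helix-loop-helix factor, had 44.5 and 11.3 CPM, 3.95-fold apart, but 105 CPM in the treated Brg1-deleted rKO1 library. Nr4a2 and Csrnp1 were higher in WT by 3.05- and 2.34-fold.

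Not all factors of this class were higher in WT. Egr1, a zinc finger factor induced by growth signals, had 103 CPM in WT and 270 CPM in mosaic, 2.63-fold lower in WT (2.49 to 2.78), and the mosaic value was the highest of the 6 libraries. Egr2 had 25.1 and 42.6 CPM and Egr3 9.05 and 13.4 CPM, both within 2-fold. The growth regulator Myc had 125 CPM in WT and 202 CPM in mosaic. Btg2, Klf2 and Klf6 had log2 differences of 0.15, −0.22 and −0.06. Fos and Jun on one side and Egr1 on the other therefore differed in opposite directions between the same libraries.

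Among the feedback genes, Ppp1r15a, a phosphatase subunit that restores translation after stress, had 660 CPM in WT and 35.5 CPM in mosaic, 18.6-fold apart (17.2 to 20.01). Dusp1, which dephosphorylates MAP kinases, had 667 and 53.8 CPM, 12.4-fold apart (11.7 to 13.2). Rgs2, a regulator of G protein signalling, had 217 and 38.8 CPM (5.61-fold, 5.20 to 6.06). For all 3 genes, WT was the highest of the 6 libraries, and the mosaic Brg1-deleted library had 36.7, 38.6 and 27.2 CPM. The NF-κB feedback inhibitor Tnfaip3 had 109 and 26.1 CPM, 4.17-fold apart, but 249 CPM in the treated Brg1-deleted rKO1 library. Nfkbia, which holds NF-κB in the cytoplasm, had 2328 CPM in WT and 1109 CPM in mosaic, 2.10-fold apart (2.07 to 2.13). Zfp36, whose product destabilizes cytokine mRNAs, had 523 and 163 CPM, 3.20-fold apart. Gadd45b, a growth arrest gene induced by stress, had 313 and 105 CPM (2.98-fold, 2.83 to 3.13), and Rgs16, with a role like that of Rgs2, 25.9 and 5.52 CPM (4.69-fold, 3.81 to 5.80). Ier3, Gadd45a and Tob1 were higher by 3.74-, 2.18- and 2.05-fold. Rgs1 had 682 and 340 CPM and reached 930 and 1086 CPM in the treated rKO1 libraries. Dusp2 and Socs3, other feedback genes, had 416 and 80.4 CPM in WT and 340 and 89.2 CPM in mosaic. Cd69, an early activation antigen, had 318 and 160 CPM and stayed just short of 2-fold (1.98, 1.90 to 2.07).

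Zfp36l1, a relative of Zfp36, was the feedback gene lower in WT, with 47.5 CPM against 301 CPM, a 6.33-fold difference (5.88 to 6.82). The mosaic Brg1-deleted library had 104 CPM and the rKO1 libraries 39.2 to 58.1 CPM, so the mosaic Brg1-sufficient library was the one that stood apart. Exons of other genes cover 55.9% of its exons, and the library kit does not mark strand, so its reads are uncertain. Over both lists, WT was above the other 4 libraries for 22 of 48 genes, beside 19.2% of all genes. Mosaic Brg1-sufficient was below them for 10 of 48, beside 15.1%. Between the treated and untreated Brg1-deleted rKO1 libraries, which share no sample with this comparison, 21 of 51 genes of these lists were higher and 2 lower after TAM, beside 5.18% and 6.51% of all genes there. Summed over its list, macrophage RNA also differed between WT and mosaic, with 997 and 298 CPM, and its part in the immediate-early values was not tested.

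**Figure D2:**
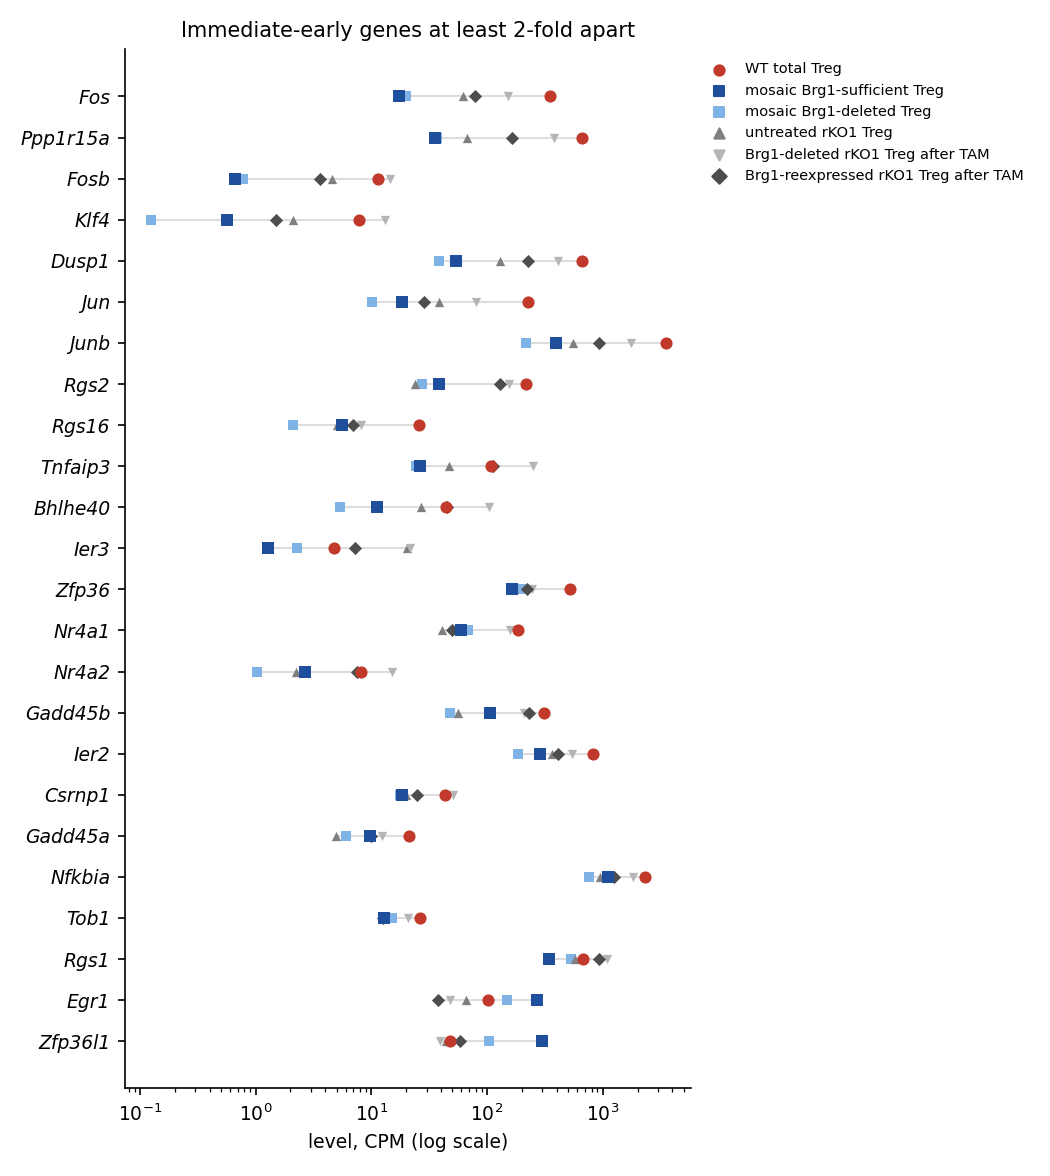
Levels of the 24 immediate-early genes at least 2-fold apart between WT and mosaic Brg1-sufficient, in CPM on a log scale (x axis), with 1 symbol for each of the 6 total Treg libraries. The WT circle lies furthest right for Fos, Dusp1, Jun and Junb, and only Egr1 and Zfp36l1, in the lowest rows, have WT left of the mosaic Brg1-sufficient square.

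Heat shock chaperones did not share this shift as a list. Of 18 listed, 17 were compared, 2 were higher and 0 lower in WT, beside 7.93% and 7.83% of all genes. The median log2 difference of the list was −0.03. The higher genes were both inducible Hsp70 copies, whose near-identical sequence makes their reads uncertain. Hspa1b had 199 reads in WT and 19 in mosaic, 13.4-fold apart (8.35 to 22.7), and Hspa1a had 53 reads against 2, a ratio of 33.9 (8.92 to 287). Hsp90ab1, the constitutive Hsp90, had 1434 CPM in WT and 2624 CPM in mosaic. The constitutive Hsp70 Hspa8 had 1000 and 1296 CPM, and Dnajb1 231 and 116 CPM. For the unfolded protein response, 15 of 16 genes were compared and 1 was higher in WT, Dnajb9 of the endoplasmic reticulum, with 34.4 and 10.5 CPM (3.28-fold, 2.80 to 3.85).

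Cell cycle genes fall into an early group, induced by E2F factors at entry into S phase, and a late group for mitosis that is relieved from repression through CHR promoter elements. In WT, 5 of 34 early genes compared were higher and 1 lower (35 listed, median 0.22), and 11 of 31 mitotic genes were higher and 0 lower (39 listed, median 0.83). These counts stand beside 7.93% and 7.83% of all genes. All 31 mitotic genes compared had a positive log2 difference, and 37 of the 39 listed did, with Kif15 and Foxm1, both below the filter, on the other side. The summed mitotic level was 809 CPM in WT and 464 CPM in mosaic, a 1.74-fold difference.

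For 2 mitotic genes that were higher in WT and hold the CHR letters TTTGAA, the promoter is shown with these letters, on either strand, in capitals. Both are RefSeq sequences of GRCm38.p6 on the gene's strand, Spc25 at chr2:69206164-69206463 (minus strand) and Ube2c at chr2:164769679-164769978 (plus strand).
Spc25: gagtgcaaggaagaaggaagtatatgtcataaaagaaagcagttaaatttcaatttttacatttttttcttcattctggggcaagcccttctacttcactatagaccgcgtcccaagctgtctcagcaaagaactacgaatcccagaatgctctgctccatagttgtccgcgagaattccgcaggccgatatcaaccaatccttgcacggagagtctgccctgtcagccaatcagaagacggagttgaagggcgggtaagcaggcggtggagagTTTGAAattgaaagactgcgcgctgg
Ube2c: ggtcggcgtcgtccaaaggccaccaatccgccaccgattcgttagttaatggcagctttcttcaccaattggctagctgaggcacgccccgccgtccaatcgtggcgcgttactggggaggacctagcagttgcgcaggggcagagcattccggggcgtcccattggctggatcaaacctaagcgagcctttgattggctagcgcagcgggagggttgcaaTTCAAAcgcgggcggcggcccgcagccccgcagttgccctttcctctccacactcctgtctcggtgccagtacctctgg

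TTTGAA was present in the windows of 6 of the 11 mitotic genes higher in WT and 13 of 15 other members with a promoter. By window this was 6 of 11 and 14 of 16, beside 17.9% of all windows. CCAAT, bound by NF-Y, was present for 7 of 11 and 13 of 15 genes, or 7 of 11 and 14 of 16 windows, beside 37.4% of all windows. Both motifs were found for a smaller share of the members higher in WT than of the rest of the list.

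Spc25, a subunit of the Ndc80 kinetochore complex, had 36.0 CPM in WT and 10.8 CPM in mosaic, 3.33-fold apart (2.86 to 3.90). Nuf2 of the same complex had 14.6 and 4.67 CPM, 3.12-fold apart (2.46 to 3.99). Ccnb1, the cyclin that drives mitotic entry, had 29.7 and 10.2 CPM (2.92-fold, 2.49 to 3.45). These values of WT did not stand above the other libraries, since the Brg1-reexpressed rKO1 library had 81.8 CPM of Ccnb1 and 93.2 CPM of Spc25. Ube2c, the ubiquitin-conjugating enzyme of the anaphase-promoting complex, had 51.2 and 21.8 CPM (2.35-fold, with 22.8% of its exon bases shared with another gene). Birc5, or survivin, had 102 CPM in WT and 50.1 CPM in mosaic. Aurka, Cdca3, Nusap1, Kif2c, Bub1 and Kif23 were higher by 2.004- to 2.72-fold. In contrast, the proliferation marker Mki67 had 33.7 and 28.2 CPM, 1.20-fold apart (1.06 to 1.34), and Cdc20 had 28.17 and 26.96 CPM.

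For 0 of the 31 mitotic genes was WT above the other 4 libraries, beside 19.2% of all genes. For 10 of the 31, mosaic Brg1-sufficient was below them, beside 15.1%. The summed level was 378 CPM in mosaic Brg1-deleted and between 668 and 2799 CPM in the rKO1 libraries, so WT lay above both mosaic libraries and untreated rKO1 and below both treated rKO1 libraries. Among the early genes, the ribonucleotide reductase subunit Rrm2 had 102 CPM in WT and 38.3 CPM in mosaic, 2.68-fold apart (2.46 to 2.91). Tyms, which makes thymidylate, had 106 and 46.5 CPM (2.28-fold). The S phase cyclin Ccne2 had 12.7 and 3.49 CPM, 3.64-fold apart (2.78 to 4.81), with 17.4% of its exon bases overlapped. Slbp and Tk1 were higher by 2.10- and 2.03-fold. The replicative helicase genes Mcm2 and Mcm5 had 44.8 and 66.9 CPM in WT and 46.6 and 76.1 CPM in mosaic. Fen1 was lower in WT with 27 against 73 reads, and exons of other genes cover 84.2% of it. Of 47 replication-dependent histone genes compared, 10 were higher and 9 lower, beside 7.93% and 7.83% of all genes.

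Macrophage RNA was higher in the WT library. Splenic red pulp macrophages clear old erythrocytes and recycle their iron, and make complement C1q, the iron exporter ferroportin and haem oxygenase. Of 35 macrophage genes listed, 24 were compared, 21 were higher and 0 lower, beside 7.93% and 7.83% of all genes. The median log2 difference of the list was 2.52 beside −0.05 for all genes. Of all 35, including the 11 below the filter, 34 had the higher level in WT. The exception was Siglec1, with 3 reads in WT and 19 in mosaic. The summed level was 997 CPM in WT and 298 CPM in mosaic, and 243 CPM in mosaic Brg1-deleted. The rKO1 libraries had 274 to 842 CPM. In these bulk libraries, fewer cells of a type and less RNA per cell cannot be told apart.

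C1qb, a chain of complement C1q, had 78.7 CPM in WT and 9.30 CPM in mosaic, 8.46-fold apart (7.28 to 9.88), with 8.40 CPM in mosaic Brg1-deleted and 40.6 to 93.2 CPM in the rKO1 libraries. C1qa and C1qc both differed by 5.73-fold. The 3 chains were thus low in both mosaic libraries and of like level in WT and untreated rKO1. Genes of red pulp macrophages had larger folds. Vcam1, an adhesion molecule on these cells, had 21.2 and 0.614 CPM, 34.6-fold apart (19.97 to 65.6). Slc40a1, which is ferroportin, had 221 reads in WT and 4 in mosaic, a ratio of 70.6 (27.2 to 261). Spic, the transcription factor that specifies red pulp macrophages, had 14.5 and 1.13 CPM, 12.8-fold apart (8.42 to 20.4). Hmox1, haem oxygenase, had 27.2 and 2.17 CPM (12.5-fold), and Adgre1, which encodes F4/80, had 6.94 and 0.283 CPM (24.5-fold, 10.9 to 68.1). Fcgr4 had 25 reads in WT and 0 in mosaic, at least 10.6-fold higher when set against 3 reads.

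Cd5l, a secreted protein of tissue macrophages, had 87 reads in WT and 12 in mosaic, and Timd4, a receptor for apoptotic cells, 109 and 37. Csf1r, the receptor for the macrophage growth factor, had 8.02 and 1.84 CPM, 4.36-fold apart (3.03 to 6.40), and exons of other genes cover 15.1% of it. Broader myeloid genes differed less. Lyz2, lysozyme, had 377 CPM in WT and 113 CPM in mosaic, 3.34-fold apart (3.19 to 3.51), and 25.3 to 124 CPM in the other 4 libraries. Apoe had 235 and 106 CPM, 2.22-fold apart. Lyz2 and Apoe together made up most of the summed macrophage level in WT and in mosaic. Cybb had 12.8 and 12.1 CPM and Axl 12.4 and 11.7 CPM, with intervals of 0.875 to 1.27 and 0.881 to 1.29. Genes outside the list that were among the 15 largest folds included Apoc1, an apolipoprotein, with 140 reads against 3, and Fcna, a ficolin of macrophages, with 37.3 and 1.51 CPM (24.7-fold, 17.3 to 36.5). The chemokine Ccl6 had 158 reads in WT and 5 in mosaic.

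Platelet genes showed the widest gap of the cell type lists. Of 11 listed, 4 were compared and all 4 were higher in WT, beside 7.93% of all genes. These 4 passed the FPKM filter through WT only, so their direction was fixed in advance and is a description. All 11 listed genes had the higher level in WT, and 8 of the 11 had no read in the mosaic Brg1-sufficient library. Pf4, platelet factor 4, had 207 reads in WT and 1 in mosaic, a ratio of 264 (47.0 to 10497). Ppbp, the precursor of platelet basic protein, had 109 reads against 0, at least 46.4-fold higher. Gp9, of the von Willebrand factor receptor, had 26 reads against 0, at least 11.1-fold. Clec1b and Gng11, outside the list but among the 15 largest folds and also found in platelets, had 107 against 0 and 119 against 1 reads. The summed platelet level was 29.3 CPM in WT, 1.04 and 1.44 CPM in the mosaic Brg1-sufficient and deleted libraries, and 46.9 to 112 CPM in rKO1, so that the mosaic pair stood apart from the other 4 libraries.

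Of 27 erythroid genes listed, 26 were in the files and 11 were compared, 5 of them higher and 0 lower in WT, beside 7.93% and 7.83% of all genes, with a median of 0.73 that went to 0.42 among the 8 genes at 5 CPM or more. Hba-a1, an alpha globin, had 412 CPM in WT and 124 CPM in mosaic, 3.33-fold apart (3.18 to 3.48). The beta globin Hbb-bs had 50.5 and 14.7 CPM (3.44-fold, 3.02 to 3.93) and Hbb-bt 28.2 and 10.3 CPM. Hba-a2, a near copy of Hba-a1, had 12.5 and 18.1 CPM, and the split of reads between such copies is uncertain. Alas2, the erythroid haem synthesis enzyme, had 52 reads in WT against 26 in mosaic. The summed level was 603 CPM in WT, 248 and 265 CPM in the mosaic libraries and 443 to 748 CPM in the rKO1 libraries. Hba-a1 alone made up most of the sum in WT. Macrophage, platelet and erythroid RNA were each lower in both mosaic libraries than in WT.

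Other cell lists had called genes in both directions, in a single direction or in neither. Their counts are read beside 7.93% of all genes higher and 7.83% lower in WT. Of 5 B cell genes compared, 0 were 2-fold apart, with Ighm at 398 CPM in WT and 548 CPM in mosaic, and Cd79a, a chain of the B cell receptor, at 11.6 and 12.8 CPM. Of 6 genes of dendritic cells and MHC class II, Batf3 was lower in WT. Cd74, the invariant chain, had 223 and 218 CPM. Of 8 plasma cell genes, the J chain gene Jchain and Iglc2 were higher, and Ighg1, Ighg2b and Igha lower. Of 5 CD8 T and NK cell genes, Ncr1 (0.422 and 4.91 CPM) and Gzmk were lower in WT. Among 8 conventional helper T cell genes, Ifng and Dapl1 were higher and Il2, Il17f and Csf2 lower. Il17f, a Th17 cytokine, had 7 reads in WT against 71 in mosaic. Of 3 neutrophil genes, S100a8 and S100a9 were higher and Mmp9 lower. All 6 gamma-delta receptor genes compared had a positive log2 difference, with a median of 1.006. Beside 19.2% of all genes, WT lay above the other 4 libraries for all 6. Of these, 3 gamma constant segments were called higher in WT, led by Tcrg-C1 with 43.1 and 16.4 CPM, and their reads may be shared among near copies.

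**Figure D3:**
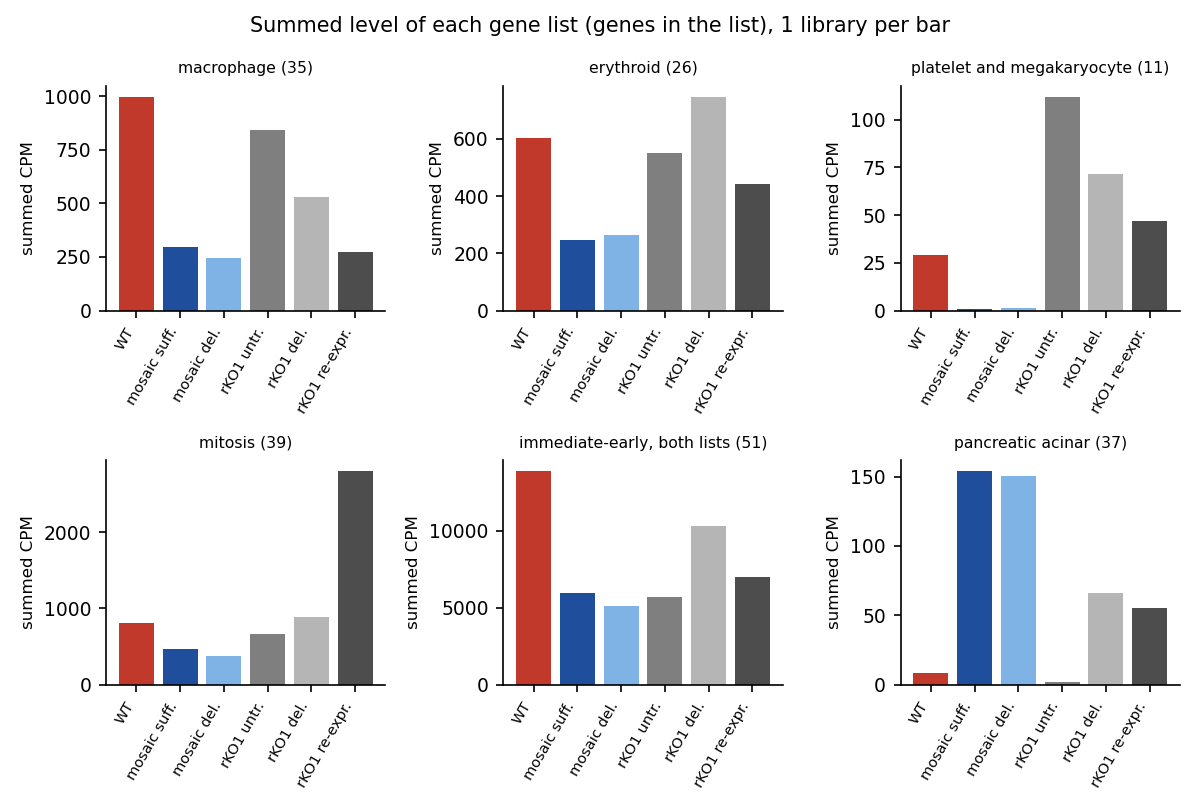
Summed level of 6 gene lists in CPM, 1 bar per library, each panel with its own axis starting at 0 and the number of genes in brackets. Macrophage, erythroid and platelet RNA is lower in both mosaic libraries than in WT, the platelet list at 1.04 and 1.44 CPM against 29.3 CPM, while the pancreatic acinar list runs the other way, with 154 and 151 CPM in the mosaic libraries and 8.20 CPM in WT.

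Treg identity genes leaned towards the mosaic library. All 21 listed were compared, 0 were higher and 4 lower in WT, beside 7.93% and 7.83% of all genes, and 15 of the 21 had a negative log2 difference, with a median of −0.46. Foxp3, the defining transcription factor, had 73.1 CPM in WT and 536 CPM in mosaic, 7.33-fold lower in WT (6.91 to 7.79). It had 245 CPM in mosaic Brg1-deleted and 106 to 174 CPM in the rKO1 libraries, so that WT was the lowest and mosaic Brg1-sufficient the highest of the 6. The mosaic Brg1-sufficient cells are the only ones of the 6 that use an unmodified Foxp3 allele by the study's description. The Foxp3 allele and the library cannot be told apart in this value. Exons of other genes cover 31.5% of Foxp3, so its reads are in part uncertain. The WT library, with the lower Treg levels, also held more macrophage (997 against 298 CPM), erythroid (603 against 248 CPM) and platelet RNA (29.3 against 1.04 CPM), whose part in the values of Treg identity and effector genes was not tested.

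Lag3, an inhibitory receptor that binds MHC class II, had 2.71 and 11.3 CPM, 4.16-fold lower in WT (3.01 to 5.85). Il2rb, the IL-2 receptor beta chain, had 666 CPM in WT and 1712 CPM in mosaic, 2.57-fold lower (2.52 to 2.63), with 2522 CPM in mosaic Brg1-deleted and 836 to 963 CPM in rKO1. Itgae, the integrin chain CD103, had 40.9 and 103 CPM, 2.51-fold lower (2.30 to 2.74), and was lowest in WT of all 6. Several surface receptors had values close to each other. Il2ra, which encodes CD25, had 277 and 292 CPM, and Ctla4, the inhibitory receptor, 120 and 118 CPM. Tnfrsf18, or GITR, had 732 and 718 CPM, a ratio of 1.02 (0.995 to 1.04). Ikzf2, which encodes Helios, had 308 CPM in WT and 424 CPM in mosaic. The cytokine gene Il10 had 20.8 and 12.6 CPM and Nrp1 90.8 and 77.1 CPM. Over the list, WT lay below all other 4 libraries for 8 of 21 genes, beside 15.6% of all genes.

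Of 33 genes of activated and effector Treg cells, 31 were compared, 1 was higher and 7 were lower in WT, beside 7.93% and 7.83% of all genes, and the median log2 difference was −0.62. Gzmb, the protease granzyme B, had 44.5 CPM in WT and 209 CPM in mosaic, 4.70-fold lower (4.35 to 5.09), and 103 to 2524 CPM in the other 4 libraries. Tigit, an inhibitory receptor, had 28.8 and 95.8 CPM, 3.33-fold lower (3.01 to 3.69), but only 5.85 CPM in mosaic Brg1-deleted. Prdm1, the effector factor Blimp-1, had 7.96 and 22.3 CPM (2.80-fold lower), and the chemokine receptor Ccr8 40.3 and 92.4 CPM (2.29-fold lower, 2.10 to 2.51). Gzma, Gzmf and Havcr2 were lower by 2.86- to 5.67-fold. Ccl4, a chemokine, was higher in WT with 16.3 and 7.60 CPM. The costimulator Icos had 68.2 and 135 CPM (1.98-fold lower). Of the 31, WT lay below all other 4 libraries for 7 genes, beside 15.6% of all genes. The Brg1-reexpressed rKO1 library had the highest Gzmb, Tigit, Prdm1 and Ccr8.

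**Figure D4:**
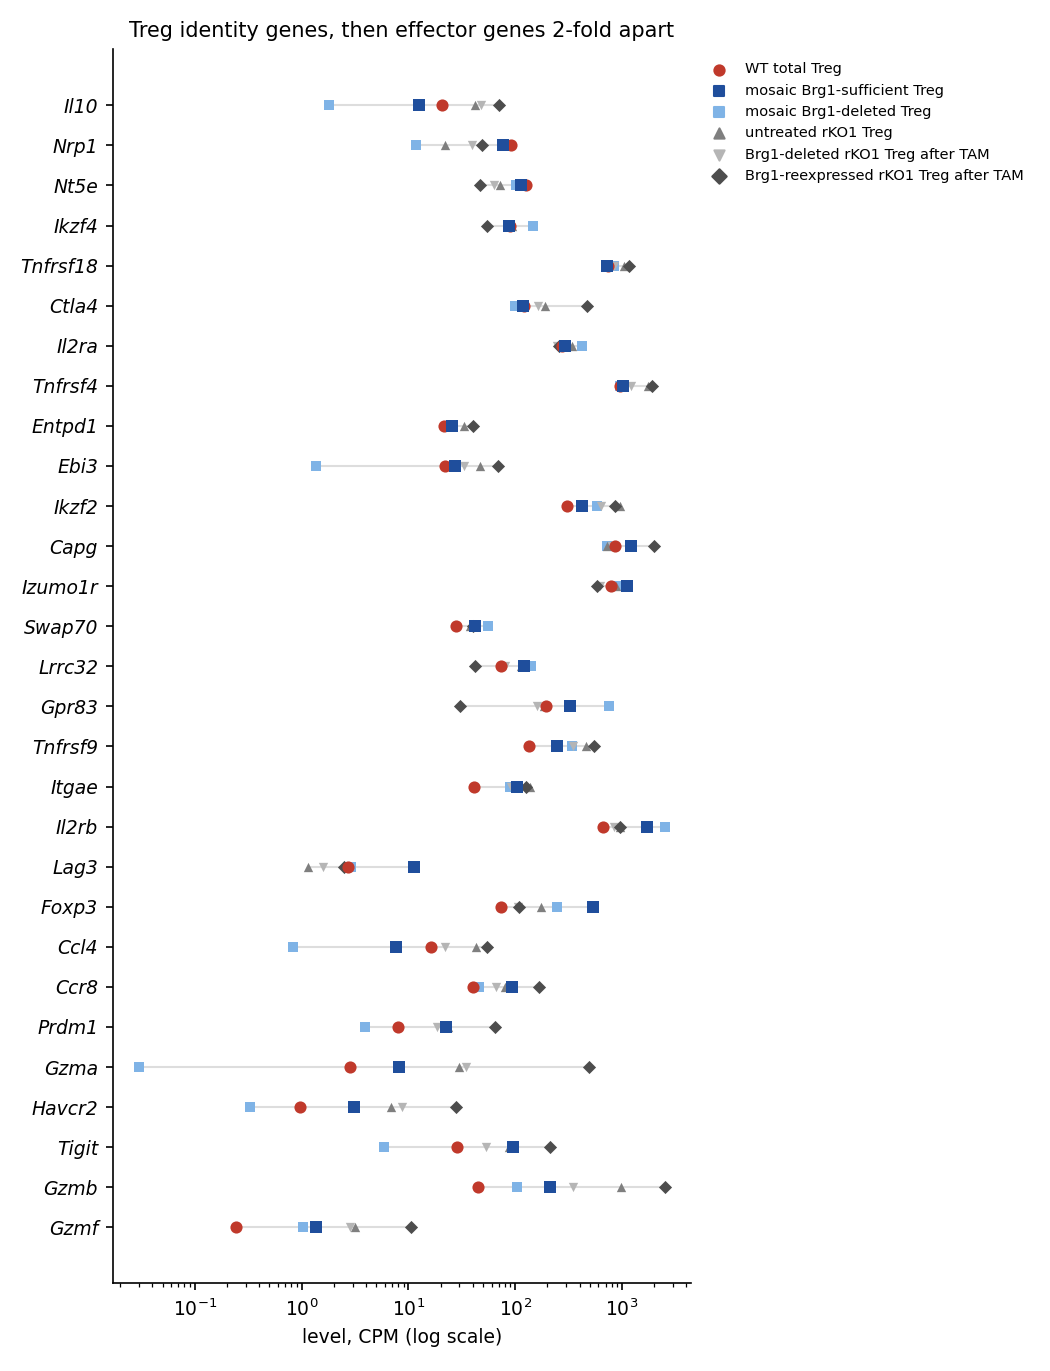
Levels of the 21 Treg identity genes and of the effector Treg genes at least 2-fold apart, in CPM on a log scale (x axis), 1 symbol for each of the 6 total Treg libraries. The WT circle and the dark mosaic Brg1-sufficient square overlap for Ctla4 and Tnfrsf18 and lie far apart for Foxp3, at 73.1 and 536 CPM.

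Among 15 naive and resting T cell genes, all compared, 0 were higher and 1 lower, beside 7.93% and 7.83% of all genes. The lower gene was the IL-7 receptor Il7r, with 49.5 CPM in WT and 114 CPM in mosaic (2.30-fold, 2.12 to 2.49). Ccr7, the lymph node homing receptor, had 404 CPM in WT and 454 CPM in mosaic. Of 30 interferon-stimulated genes, all compared, 2 were higher in WT and 1 lower, no larger a share than among all genes (7.93% and 7.83%). The list still leaned towards WT, with 25 positive and 5 negative differences and a median of 0.37 beside −0.05 for all genes. WT lay above the other 4 libraries for 16 of the 30, beside 19.2% of all genes. Mosaic Brg1-sufficient lay above them for 13, beside 23.2%. Usp18, a brake on interferon receptor signals, had 315 CPM in WT and 121 CPM in mosaic, and Oas1a 67.7 and 28.2 CPM. Ifit3 was 6.29-fold lower in WT (5.34 to 7.44), with 9.89 CPM against 62.2 CPM, and had 50.2 CPM in mosaic Brg1-deleted. Irf7 and Isg15, other members of high level, had 278 and 321 CPM in WT and 168 and 250 CPM in mosaic. Of 17 chemokine and cytokine ligands compared, 4 were higher and 1 lower, beside 7.93% and 7.83% of all genes. The lower gene was Ccl1, with 13 reads in WT and 207 in mosaic (12.5-fold, 7.13 to 23.8).

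The largest folds among protein coding genes lower in WT belonged to digestive enzymes of the exocrine pancreas and to related secreted proteins. A pancreatic acinar list was therefore made after these values were seen, and its direction is a description only. Of 37 genes, 22 were compared and 21 were lower in WT, beside 7.83% of all genes. In WT, 21 of the 37 had no read. Ctrb1, chymotrypsinogen, had 4 reads in WT and 466 in mosaic, a ratio of 91.2 (35.4 to 336). Reg1 had 0 reads against 232, at least 60.5-fold lower in WT, and Reg3b and Cela3b 0 against 119 and 106. Cela2a, an elastase, had 7 against 304 reads. Try4 and 2210010C04Rik, trypsinogen genes with near copies in the genome, had 3 against 336 and 1 against 122 reads. The summed level was 8.20 CPM in WT, 154 CPM in mosaic Brg1-sufficient and 151 CPM in mosaic Brg1-deleted. It was 1.73 CPM in untreated rKO1 and 66.1 and 55.6 CPM in the treated rKO1 libraries. The libraries that held this RNA were thus both mosaic and both treated rKO1 libraries, and its source was not tested.

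Tmem14c, a mitochondrial protein of haem synthesis, had 2.29 CPM in WT and 190 CPM in mosaic, 82.9-fold lower in WT (60.3 to 117). It had 132 to 258 CPM in the other 4 libraries, so WT stood apart from all 5. Rab6b, a Golgi GTPase, had 0.422 and 31.2 CPM, 73.9-fold lower (35.7 to 185), and 3.34 to 32.3 CPM elsewhere. Lars2, the mitochondrial leucyl tRNA synthetase, had 27.8 and 520 CPM, 18.8-fold lower (17.1 to 20.6), with 274 CPM in mosaic Brg1-deleted and 18.0 to 22.2 CPM in rKO1. Here both mosaic libraries stood apart instead. Desi2, Upp1, Nlrp1a and Ccdc184 were 9.78- to 42.3-fold lower in WT. At the other end, the zinc finger gene Zfp990 had 140 reads in WT and 0 in mosaic, at least 59.6-fold higher, and Elobl 130 against 0. Zfp990 was also at 0.0412 CPM in mosaic Brg1-deleted and at 1.43 to 7.48 CPM in the rKO1 libraries. Izumo4 had 65.8 and 1.98 CPM, 33.2-fold apart (24.4 to 46.3), and Rasd1 92 reads against 3.

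Several abundant transcripts, chosen after their values were seen, also differed. Actb, beta actin, had 11031 CPM in WT and 41707 CPM in mosaic, 3.78-fold lower in WT (3.762 to 3.7999), with 39479 CPM in mosaic Brg1-deleted and 4023 to 15213 CPM in the rKO1 libraries. The noncoding RNA Gm26917 had 308 and 2218 CPM, with 3001 CPM in mosaic Brg1-deleted and 180 to 234 CPM in rKO1. Both were therefore high in the mosaic pair. Further genes lower in WT were copies of ribosomal protein genes, with Rps3a3 at 17.8 and 498 CPM and Gm15772 at 37.2 and 669 CPM. The parent Rps3a1 ran the other way, with 1555 CPM in WT and 566 CPM in mosaic, as did Rpl26 with 775 and 211 CPM. Reads of a gene and its copies cannot be placed with certainty. Of 1012 processed pseudogenes compared, 87 were higher and 173 lower in WT, with a median of −0.30. Of 81 ribosomal protein genes, 3 were higher and 0 lower, with a median of −0.06. Among all genes, 7.93% were higher and 7.83% lower in WT.

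Genes with long exon sequence leaned towards the mosaic library. With protein coding genes split into 8 bins of about equal size by exon length, the median log2 difference fell from 0.13 in the shortest bin (63 to 1764 bases) to −0.32 in the longest (8654 to 35542 bases). The share of genes higher in WT went from 12.7% to 0.759%, while the share lower was 7.07% and 7.08% at both ends and 3.37% at its least. Examples of long transcripts, chosen after their values were seen, were the histone methyltransferase gene Kmt2d with 38.0 CPM in WT and 123 CPM in mosaic, and Notch1 with 18.8 and 69.8 CPM. In mosaic Brg1-deleted these genes had 163 and 60.8 CPM. The mosaic Brg1-deleted library showed the same kind of slope against WT, with a median log2 difference of mosaic Brg1-deleted over WT of −0.44 in the shortest and 0.35 in the longest bin. What lies behind this trend was not tested.

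**Figure D5:**
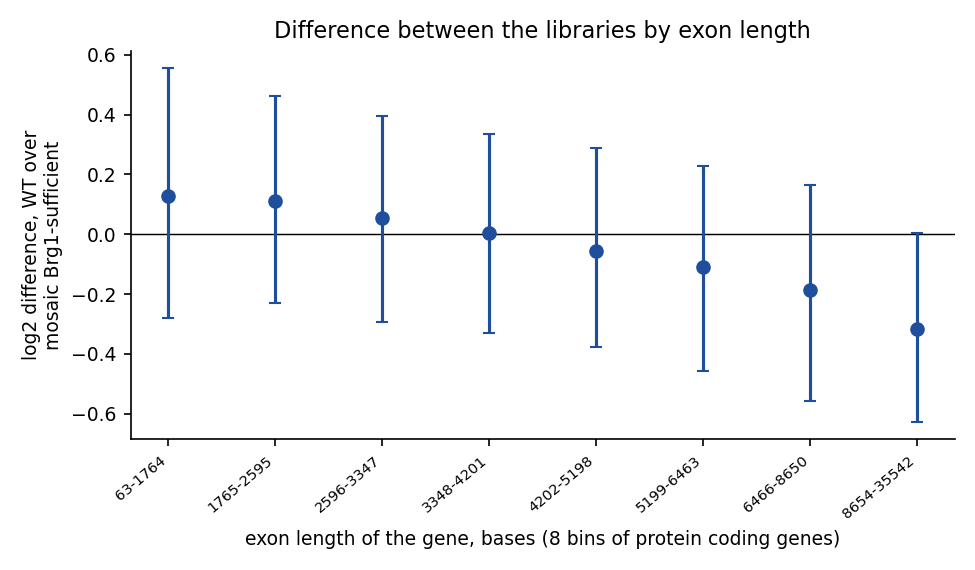
Median log2 difference of WT over mosaic Brg1-sufficient (points) with the lower and upper quartiles of genes (bars), in 8 bins of protein coding genes by exon length in bases. The median goes from 0.13 in the shortest to −0.32 in the longest bin.

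Short and noncoding RNAs were called more often than protein coding genes in both directions. Of 138 miRNA entries compared, 60 were higher and 50 lower in WT, and of 102 snoRNAs, 41 and 30. Genes this short pass the FPKM filter with few reads, so a 2-fold call can come from counting error alone. The counts for miRNAs and snoRNAs therefore do not by themselves show a difference between the libraries. Leaving out genes of 580 exon bases or less, chosen after seeing the data, took the calls among all genes from 973 and 960 to 637 and 641. Of 293 long intergenic noncoding RNAs, 86 were higher and 26 lower, and of 288 antisense RNAs, 55 and 37. Among all genes, 7.93% were higher and 7.83% lower in WT. Without strand, reads of an antisense RNA and its partner gene cannot be told apart, and 142 of the genes higher and 87 of those lower in WT share more than 10% of their exon bases with another gene.

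In the metabolic lists, the counts are read beside 7.93% of all genes higher and 7.83% lower in WT. Of 14 cholesterol synthesis genes compared, 1 was lower in WT, Srebf2, the factor that induces the pathway, with 60.7 and 164 CPM. Of 20 genes of glycolysis and hypoxia, Egln3, an oxygen sensor, was lower with 6.45 and 30.8 CPM. Of 90 nuclear genes of oxidative phosphorylation, 1 was higher and 0 lower, with a median of 0.18 that went to 0.047 once the trend with exon length was removed. Among 24 mitochondrially encoded genes, 4 were higher and 2 lower, 4 of these being tRNA genes with at most 2 reads in either library. The largest level among the called genes was that of mt-Cytb, a subunit of complex III, at 3431 and 1599 CPM. Of 101 variable segments of the T cell receptor alpha and beta chains, 6 were higher and 9 lower.

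The Brg1 locus was examined because the mice differ there by design, and sex-linked genes were examined as well. Within 20 Mb of Smarca4, 144 genes were compared, 7 were higher and 8 lower in WT, or 10.4% in all beside 15.8% of all genes. Within 10 Mb the share was 6.45% of 93 genes. Xist, which silences the inactive X chromosome, had 52.8 CPM in WT and 137 CPM in mosaic, 2.59-fold lower in WT (2.40 to 2.80). The 4 Y-linked genes listed had no read in either library. Ddx3y, one of them, had 54.4 CPM in untreated rKO1 and 27.4 and 34.6 CPM in the treated rKO1 libraries, although their labels give both copies of the X-linked Foxp3 gene, as in females.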

How the data were processed

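Total RNA of sorted Treg cells was sequenced after SMART-Seq v4 amplification, which does not mark strand. The authors deposited FPKM values for 53465 gene identifiers, and the submitters' processing notes name HISAT2 2.0, StringTie 1.3.3b, featureCounts 1.5.0-p3 and mm10, with no roles. Whole reads were recovered from FPKM with exon lengths of GENCODE M21: of 25995 genes with reads, 24287 (93.4%) gave whole reads within 0.02 reads, and 1707 more did with an estimated length. These were scaled by TMM over the 6 total Treg libraries (own code, Python 3.11.15, NumPy 2.4.6, SciPy 1.17.1, pandas 2.3.3, matplotlib 3.10.9). The 2 aTreg libraries were not used. Genes with FPKM of 1 or more in either library were compared, and a difference of at least 2-fold was called, with a prior of 0.125 reads for log2 values. Conditions were taken from GEO's labels. The gene lists and the members of the comparison were chosen with earlier results of these data known. Named genes were the 15 largest folds in each direction among called protein coding genes with 5 CPM or more in the higher library, called list members, the members of highest level of each list, and Smarca4; others are marked as chosen after their values were seen. A gene at 0 reads was bounded against 3 reads in its library. With 1 library a side, counting intervals (Clopper-Pearson, 95%) stand in for tests. The steps were tested on simulated data. Alternatives changed the scaling, filter, pseudocount, gene classes, length trend and counting criterion. Some genes are not reported here.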

Additional observations from a re-analysis of the deposited data

How the results depend on the processing

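The counts of genes at least 2-fold higher and lower in WT, 973 and 960, were 3898 and 4394 with no filter, 426 and 520 at 5 CPM or more, 362 and 371 at an FPKM of 5 or more, 532 and 506 with a pseudocount of 1 on FPKM, 443 and 497 among protein coding genes, and 398 and 353 where the counting interval lay wholly beyond 2-fold. Leaving out genes of 580 exon bases or less, an alternative chosen after seeing the data, gave 637 higher and 641 lower. Other scalings gave 1004 to 1126 higher and 811 to 920 lower, and shifted the median of all genes by at most 0.10 on the log2 scale, from −0.05 to 0.05. With a pseudocount of 1, list medians were 0.52 for immediate-early factors, 0.81 for feedback genes, 1.32 for macrophage, 2.15 for platelet and −1.85 for pancreatic acinar genes. At 5 CPM or more, erythroid genes had 0.42, and neutrophil (1 gene, −2.44), B cell (4 genes, 0.067) and T cell receptor segment lists (44 genes, 0.14) changed sign. As a ratio of deposited FPKM, Treg identity had −0.36. With genes at 0 reads set at their bound, an added alternative, the platelet and pancreatic acinar medians were 4.63 and −4.26. Of 256 alternatives over 32 lists, 230 moved by less than their tolerance. No paired analysis was possible because each condition has 1 library, and no replicate could be left out. Where both libraries held 3 reads or fewer (0.181 CPM in WT and 0.142 CPM in mosaic), no difference was detectable at this depth.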
